A study of Mus musculus with 6 samples.

Results

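Thbs1, Tagln and Cald1 are 3 genes of the contractile and adhesive machinery, described here in NIT-1 cells, an established line of mouse pancreatic beta cells, with and without cadmium. They were taken by name from the 18972 genes measured under a single symbol, and each is read by 1 transcript cluster of the array. Their cadmium against control difference and the spread of the cadmium arrays led to their choice, so those values are given as a description, with no test. Control cells were grown in culture medium alone, and treated cells received 4 µmol/L CdSO4 (cadmium sulphate) for 24 h, both after 24 h in 6-well plates. Each group has 3 arrays of biotin-labelled total RNA, labelled as biological replicates. Nothing in the labels tells whether the cultures were of different passages, so the p-values cover the spread between 3 cultures a group, which may be partly technical.

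Thbs1 encodes thrombospondin-1, a secreted glycoprotein that binds cell-surface receptors such as CD36, CD47 and integrins and can activate latent TGF-beta. Tagln encodes transgelin, an actin-binding protein of the calponin family that is abundant in smooth muscle, and Cald1 encodes caldesmon, which binds actin and tropomyosin and restrains the ATPase of actomyosin. Serum response factor (SRF) and its actin-regulated coactivators drive many genes of actin filaments and contraction, Tagln among them, when actin shifts from monomers into filaments. These genes are typical of mesenchymal and smooth muscle cells rather than of beta cells.

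Values are deposited signals on a scale taken as log2, so that a difference of 1 stands for a doubling of signal if the base is 2. The background bound is the 95th percentile of the negative control probes, which averaged 6.18 over the arrays. A gene below it may have a compressed change and gets no fold. Array medians were between 3.34 and 3.40, and the median difference over all genes was 0.04. The first principal component separated the groups, and the second set cadmium replicate 1 and control replicate 3 against the remaining 4 arrays. Of 7 measured beta cell markers, 0 had a group mean above the bound, Ins2 being at 5.27 ± 0.10 and 5.29 ± 0.04 (SD, n = 3 each). The labelled cell type could therefore not be checked by marker level on these arrays.

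Thbs1 was higher on every cadmium array than on any control array, but its cadmium arrays lay far apart. The control signals were 6.00, 5.81 and 6.18 on replicates 1 to 3, and the cadmium signals were 6.85, 8.70 and 8.68. Cadmium replicates 2 and 3 were nearly equal and far above replicate 1, which lay closer to the control arrays than to either of them. The means were 6.00 ± 0.19 in control and 8.08 ± 1.07 in cadmium (SD, n = 3 each), a difference of 2.08. Without cadmium replicate 1 the difference was 2.69.

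The control mean of Thbs1 lay below the background bound and the cadmium mean above it, so its fold is a lower bound, with each control array set to at least its own 95th percentile of negative controls. On that basis Thbs1 was at least 1.57-fold higher on cadmium replicate 1, at least 5.67-fold higher on replicate 2 and at least 5.58-fold higher on replicate 3. Its signal exceeded 92.9% to 95.2% of negative control probes on the control arrays, 97.0% on cadmium replicate 1 and 99.1% and 99.2% on cadmium replicates 2 and 3.

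Tagln had the same order of cadmium arrays as Thbs1 over a smaller range. Its control signals were 4.46, 4.48 and 4.71, and its cadmium signals were 5.24, 5.80 and 5.63. The groups did not overlap, and cadmium replicate 1 was again the lowest of its group and control replicate 3 the highest of its own. The means were 4.55 ± 0.14 and 5.56 ± 0.29 (SD, n = 3 each), a difference of 1.01, and of 1.17 without cadmium replicate 1. All 6 signals of Tagln lay below the background bound, so no fold is given.

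Cald1 had the smallest difference and the tightest cadmium arrays. Its signals were 5.39, 5.32 and 5.49 in control and 5.78, 5.89 and 5.95 in cadmium. The groups did not overlap, and the gap between the highest control and the lowest cadmium array was 0.29. The means were 5.40 ± 0.09 and 5.87 ± 0.08 (SD, n = 3 each), a difference of 0.48. Cald1 too lay below the bound on all 6 arrays. Separation of the 3 arrays of each group, with cadmium higher, was found in 22.9% of all genes, and since these 3 genes were chosen on that contrast nothing is read from their sharing it.

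**Figure D1:**
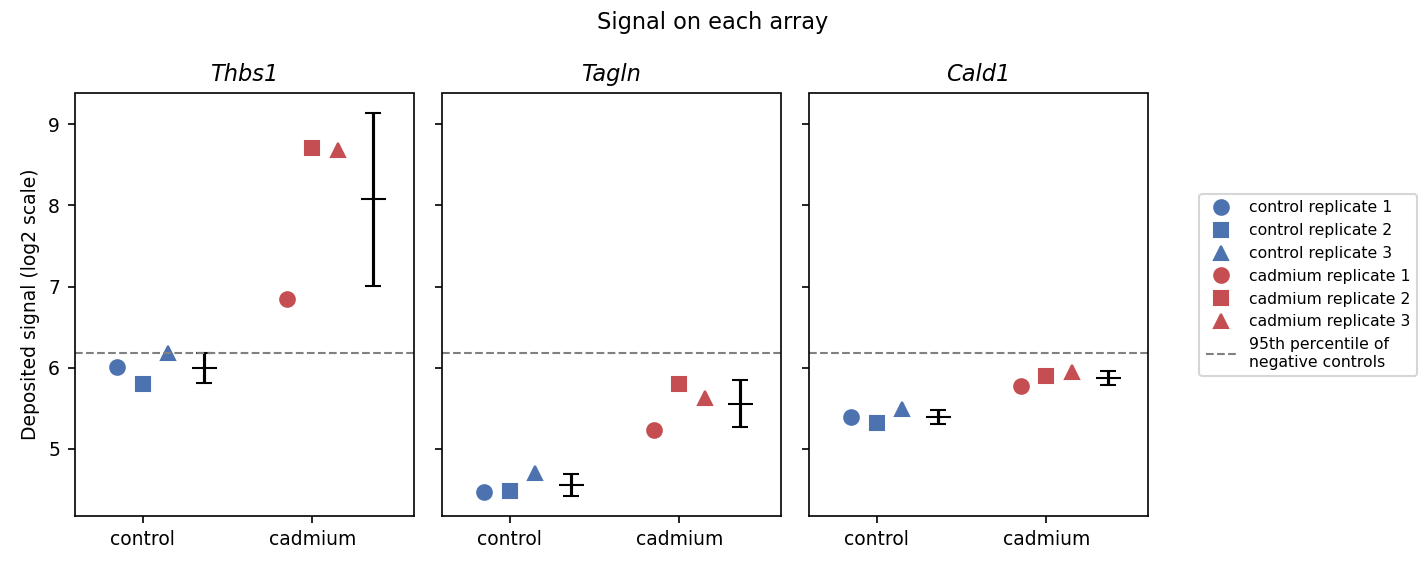
Deposited signal (log2 scale) of Thbs1, Tagln and Cald1 on each of the 6 arrays, with the mean and SD of each group (n = 3) to the right of its points and the mean 95th percentile of negative controls, 6.18, as a dashed line. Cadmium replicate 1 is the lowest cadmium array for each gene, and the Thbs1 signals of cadmium replicates 2 and 3 stand clear of the line, while Tagln and Cald1 stay below it.

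A promoter sequence was at hand for Cald1, which RefSeq places at 2 starts on assembly GRCm38.p6. They are printed to show whether motifs of SRF, of adhesion-related factors and of metal and heat stress factors lie there. Each line gives 250 bases upstream of a start on the plus strand, with capitals for a match.
Cald1 upstream start, chr6:34598254-34598503: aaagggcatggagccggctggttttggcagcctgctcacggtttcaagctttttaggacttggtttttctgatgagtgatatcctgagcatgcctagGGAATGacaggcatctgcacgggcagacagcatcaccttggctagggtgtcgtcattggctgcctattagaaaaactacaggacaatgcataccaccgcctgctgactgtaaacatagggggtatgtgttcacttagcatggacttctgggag
Cald1 downstream start, chr6:34709194-34709443: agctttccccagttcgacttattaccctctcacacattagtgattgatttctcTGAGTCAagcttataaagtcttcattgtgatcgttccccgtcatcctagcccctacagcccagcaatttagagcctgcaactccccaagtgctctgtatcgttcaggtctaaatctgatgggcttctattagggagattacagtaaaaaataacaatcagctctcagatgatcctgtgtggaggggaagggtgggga

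Both strands were searched for 6 motifs. The upstream window holds the TEAD motif GGAATG from 153 to 148 bases before the start, a motif found in 12.6% of 32851 promoter windows of this length. The downstream window holds the AP-1 motif TGANTCA, as TGAGTCA, from 197 to 191 bases before the start, found in 6.75% of windows. Neither window holds the CArG box bound by SRF (1.47% of windows), the metal response element TGCACNC or TGCGCNC (21.4%), the antioxidant response element TGACNNNGC (10.2%) or the heat shock element of GAA, TTC and GAA, each 2 bases apart (0.466%). A match describes letters only, and the arrays do not say which start was used.

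The spread over the cadmium arrays set Thbs1 apart from the other 2 genes. Its SD of 1.07 was the highest over the cadmium arrays among 18972 genes, and the next gene had 0.80. The ratio of cadmium to control SD was 5.68 for Thbs1, 2.13 for Tagln and 0.98 for Cald1. For Tagln, 2.19% of genes had a cadmium SD as large or larger, and for Cald1 46.8%. The median SD over all genes was 0.08 in both groups. Of the 18972 genes only 2467 had a group mean above the background bound, so most of these SDs come from low signals. Spread below the bound may be compressed, which applies to the Thbs1 control mean and to every Tagln and Cald1 signal. Cadmium spread was part of the choice of these genes, so their ranks are description.

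**Figure D2:**
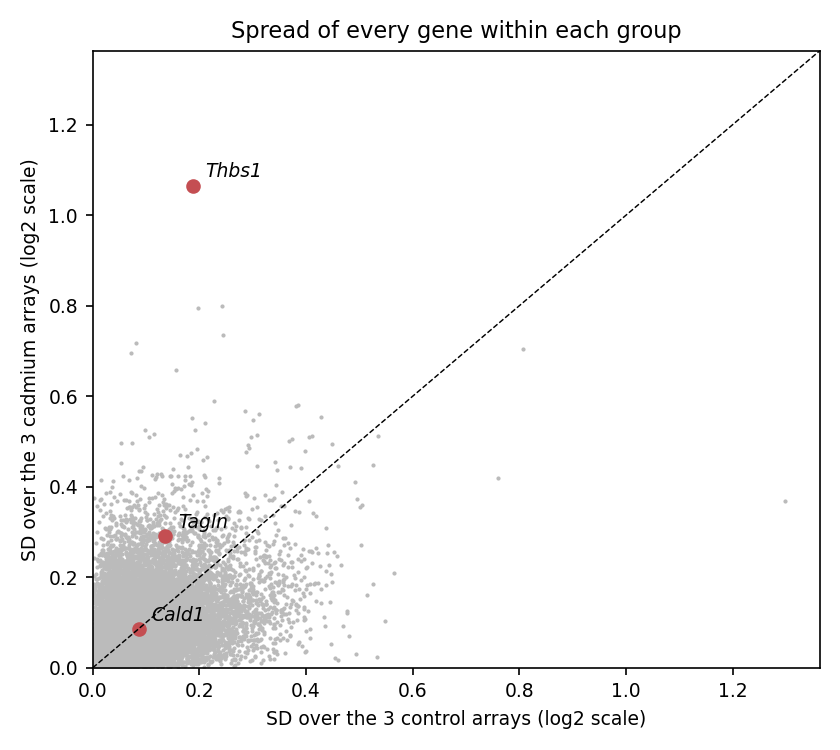
SD over the 3 cadmium arrays against SD over the 3 control arrays (both log2 scale) for every gene as a grey dot, with Thbs1, Tagln and Cald1 in red and the line of equal SD dashed. Thbs1 lies at 1.07 against 0.19, above all other genes on the cadmium axis, and Cald1 lies on the line.

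The low position of cadmium replicate 1 was shared with most genes that were at least 1 higher with cadmium. Of 164 genes at least 1 higher with cadmium, Thbs1 and Tagln among them, 89.6% had cadmium replicate 1 as the lowest cadmium array and 87.2% had control replicate 3 as the highest control array. Over all genes these shares were 36.3% and 36.8%. Among the 1227 genes higher with cadmium at a limma adjusted p under 0.05 they were 55.3% and 48.8%. Each of Thbs1, Tagln and Cald1 had both features. The part of these arrays in the 3 differences was not tested.

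The genes most like the 3 over the 6 arrays were looked for among 94 genes with a range of at least 1 and a highest signal above the bound. Pearson's r over 6 arrays in 2 groups mainly reflects the step between groups, and 23 of the 94 genes reached 0.9 with Thbs1, 31 with Tagln and 31 with Cald1. Closest to Thbs1 were Jun, a subunit of the AP-1 transcription factor (r = 0.991), Ier5l, an immediate early response family gene (r = 0.988), and Gpx1, a glutathione peroxidase (r = 0.984). Jun was at 5.05, 4.96 and 5.29 in control and 5.62, 6.35 and 6.28 in cadmium. Ier5l was at 4.84, 4.94 and 4.80 in control and 5.26, 6.48 and 6.44 in cadmium. Both group means of Jun and of Ier5l lay below the bound. These genes were picked for likeness to Thbs1 on the same arrays, so nothing is read from their low cadmium replicate 1.

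Closest to Tagln were the pseudogene Hspe1-ps6 (r = 0.991), Hspb8, a small heat shock protein (r = 0.991), and Jun (r = 0.988). Closest to Cald1 were the pseudogene Dnaja1-ps (r = 0.994), Hspb8 (r = 0.993) and Chordc1, an Hsp90 co-chaperone (r = 0.989). The signals of the pseudogenes may include RNA of their parent chaperone genes, whose sequence they resemble, and are uncertain. Among the 3 genes themselves r was 0.967 for Thbs1 with Tagln, 0.935 for Thbs1 with Cald1 and 0.976 for Tagln with Cald1. These values describe 6 arrays that share the same 2 groups.

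Other genes of contraction, adhesion and thrombospondin signalling were followed in 6 lists that exclude the 3 genes. Of 131 list genes 74 were measured under a single name, and the other 57, among them Acta2, Srf, Vcl, Cd47 and Thbs2, were not analysed here. With limma over all genes, 18 of the 74 rose and 4 fell at an adjusted p under 0.05, which is 24.3% and 5.41% of them. Over all genes 12.2% passed, 6.47% higher and 5.72% lower with cadmium. The lists were chosen with earlier results of these data known, so these shares describe the lists only. Many genes lie below the background bound, so the comparison depends on signal level. When only genes with a group mean above the bound were fitted, 8 of 26 list genes rose and 1 fell. Of all 2467 such genes, 478 rose and 400 fell. A gene entered this fit if either of its means was above the bound, so a rise could itself bring it in. For 22 of the 26 list genes neither mean was below the bound. Acta1, Cnn3 and Zyx, which rose in the fit over all genes, entered on their cadmium means only, with control means of 6.04, 5.86 and 5.86. These counts therefore cannot separate signal level from the rise itself. The median difference was 0.11 in the lists and 0.04 over all genes. The genes that rose belonged to the contractile, SRF and focal adhesion lists, and 0 genes of the thrombospondin, TGF-beta and YAP lists rose.

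Calls in these lists depended on which arrays were used. Of 74 genes, 25 rose without cadmium replicate 1 and 16 without control replicate 3, where 6.95% and 5.82% of all genes rose. Only 4, or 5.41%, rose when control replicate 1 was left out, and likewise for cadmium replicate 2 and for cadmium replicate 3, where 3.21%, 3.21% and 3.3% of all genes rose. Without control replicate 2, 5 rose, where 3.22% of all genes did. The genes that rose under every single omission were Csrp1, Fhl2, Tes and Lims1. Of these only Csrp1 lay above the bound, and both group means of Fhl2, Tes and Lims1 were below it.

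**Figure D3:**
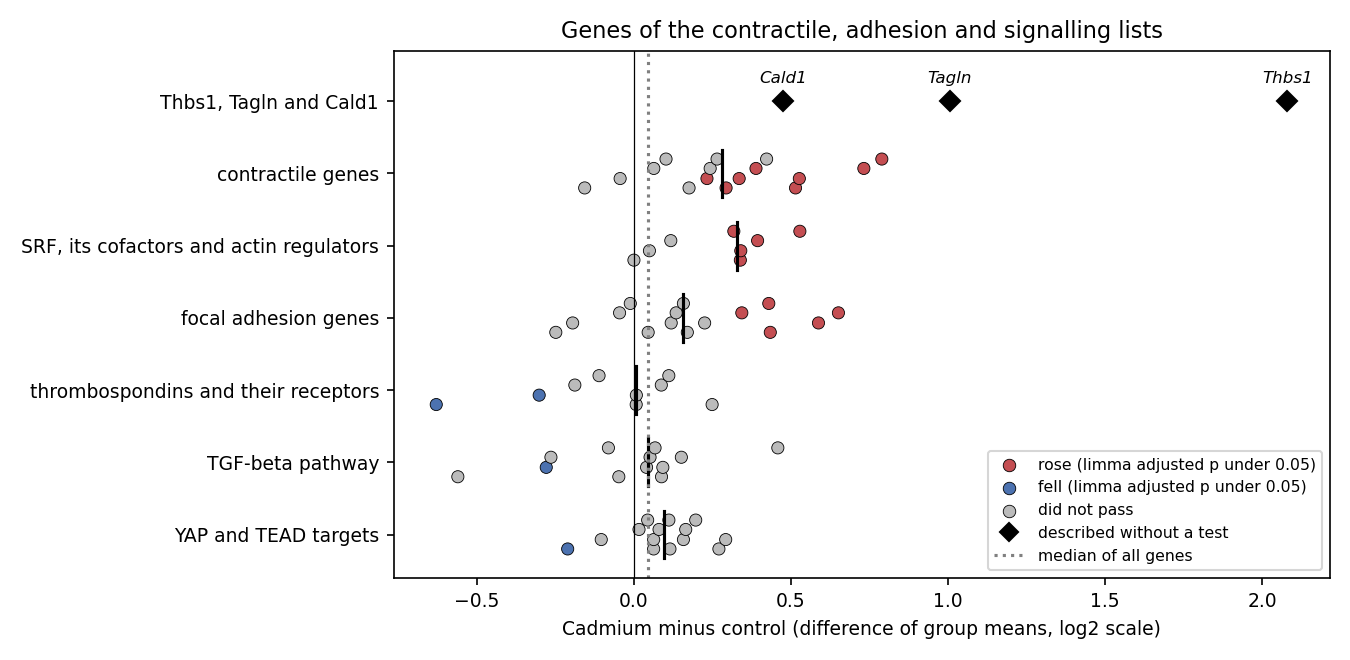
Cadmium minus control difference of group means (log2 scale) for each measured gene of 6 lists, coloured by the limma call at an adjusted p under 0.05, with list medians as black bars and the median of all genes, 0.04, dotted. Genes that rose lie in the upper 3 lists, and Thbs1, Tagln and Cald1 (black diamonds) are shown without a test.

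In the contractile list, which holds actin, tropomyosin, calponin and filamin genes, 8 of 16 measured genes rose and 0 fell (limma), and at an unadjusted p under 0.05 the counts were 12 and 0. Over all genes 6.47% rose and 5.72% fell (limma), and 17.6% were higher and 11.3% lower at that unadjusted p. These shares are the background for such counts in each list below. The median difference of the contractile list was 0.28. Csrp1, a LIM-domain protein of actin bundles and a known SRF target, was at 6.58, 6.56 and 6.71 in control and 7.30, 7.55 and 7.36 in cadmium. The groups lay well apart and both above the bound, and Csrp1 rose 1.73-fold, by 0.79 ± 0.08 (SE, limma adjusted p = 0.00183). Acta1, skeletal muscle actin, was at 6.04, 5.98 and 6.10 in control and 6.31, 6.45 and 6.37 in cadmium. Its control arrays all lay below every cadmium array, and it rose by 0.34 ± 0.06 (SE, limma adjusted p = 0.0142).

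Cnn1, a smooth muscle calponin related to transgelin, rose by 0.29 ± 0.05 (SE, limma adjusted p = 0.0133), from 4.08 ± 0.03 to 4.38 ± 0.05, and so far below the bound that its level is uncertain. Tpm3, a tropomyosin, rose from 5.41 ± 0.05 to 5.80 ± 0.13 (limma adjusted p = 0.0187), also below the bound. The remaining genes that rose were Cnn3, Flnc, Tpm4 and Tpm2, by 0.73, 0.51, 0.53 and 0.23. Of these, Flnc and Tpm4 were above the bound in both groups, at 1.43-fold and 1.44-fold. Tpm2 did not pass when arrays were centred on their medians. After quantile normalization Tpm4 did not pass, and Flna, a filamin at 8.25 ± 0.10 and 8.10 ± 0.11 as deposited, passed as lower (limma adjusted p = 0.0133, against 0.24 as deposited).

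Other contractile genes did not pass. Tpm1, another tropomyosin, was at 6.23 ± 0.03 in control and 6.18 ± 0.03 in cadmium (limma adjusted p = 0.591). Myl9, a regulatory light chain of smooth muscle and non-muscle myosin, was at 5.30 ± 0.12 and 5.54 ± 0.03, with no overlap between arrays, and did not pass (limma adjusted p = 0.0662). Tagln2, the close relative of Tagln, was singled out after its values were seen. It was at 7.02, 6.95 and 6.99 in control and 7.02, 7.59 and 7.62 in cadmium, so cadmium replicate 1 lay within the control range while the other cadmium arrays were higher, and it did not pass (limma adjusted p = 0.119). Without 1 or other of the arrays the contractile list had between 1 and 9 genes that rose, 9 of them without cadmium replicate 1. Over all genes 3.21% to 6.95% rose under these omissions, 6.95% without cadmium replicate 1.

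In the list of SRF, its cofactors and regulators of actin filaments, 5 of 8 measured genes rose and 0 fell (limma). Over all genes 6.47% rose and 5.72% fell. At an unadjusted p under 0.05 the list counts were the same, against 17.6% and 11.3% of all genes. The median difference of the list was 0.33. Srf itself and the coactivator genes Mrtfa, Mrtfb and Myocd were not measured under a single name. The counts therefore cover only other genes of the list and do not describe SRF or these coactivators. Fhl2, a LIM-domain cofactor that binds SRF, was at 5.14, 5.00 and 5.14 in control and 5.52, 5.54 and 5.41 in cadmium. It rose by 0.39 ± 0.06 (SE, limma adjusted p = 0.00971), and its cadmium replicate 1 was not the lowest of the group.

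Ssh1, a phosphatase that activates cofilin, rose from 5.69 ± 0.09 to 6.01 ± 0.05 (limma adjusted p = 0.0201), below the bound in both groups. Fhl1, a further LIM-domain gene, rose by 0.34, also below the bound. The list had between 1 and 5 genes that rose when arrays were left out in turn, where 3.21% to 6.95% of all genes rose. Only Fhl2 was called under every omission.

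Among focal adhesion genes 5 of 15 rose and 0 fell (limma), with a median difference of 0.16, and at an unadjusted p under 0.05 the counts were 6 and 1. Lims1, an adaptor that links integrin-linked kinase to actin, was at 5.00, 5.09 and 5.18 in control and 5.59, 5.80 and 5.84 in cadmium. It rose by 0.65 ± 0.08 (SE, limma adjusted p = 0.00373), below the bound in both groups. Tes, a LIM-domain protein of focal adhesions, rose from 5.74 ± 0.02 to 6.17 ± 0.06 (limma adjusted p = 0.00324).

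Zyx, zyxin, which gathers at strained stress fibres, was at 5.81, 5.72 and 6.05 in control and 6.25, 6.56 and 6.54 in cadmium, and rose at least 1.20-fold (limma adjusted p = 0.0194). Tgfb1i1, an adaptor also known as Hic-5, rose from 5.29 ± 0.14 to 5.72 ± 0.05 (limma adjusted p = 0.0139), and Pdlim5 rose by 0.34, a call lost when arrays were centred (limma adjusted p = 0.0509). Tgfb1i1 and Pdlim5 lay below the bound in both groups. Without 1 array in turn, between 2 and 7 genes of the list rose, 7 of them without cadmium replicate 1. Over all genes 3.21% to 6.95% rose under these omissions, 6.95% without cadmium replicate 1.

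**Figure D4:**
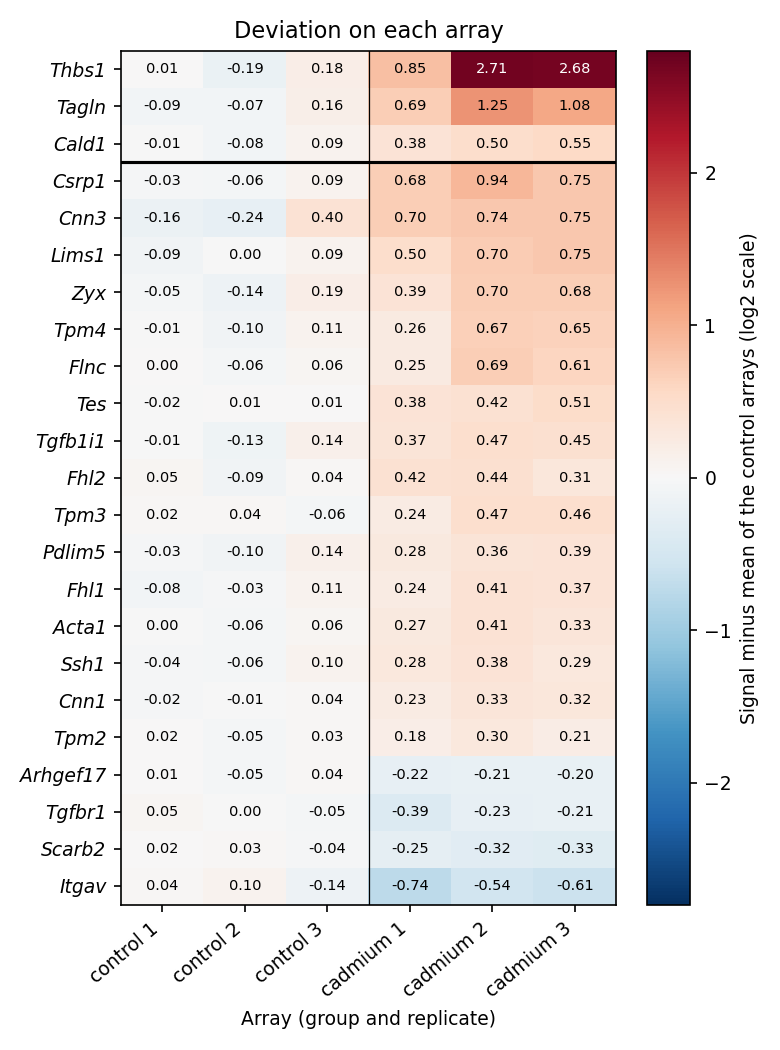
Signal of each array minus the mean of the 3 control arrays (log2 scale, colour and printed value) for Thbs1, Tagln and Cald1, above the line, and for 20 list genes that passed limma at an adjusted p under 0.05. Cadmium replicate 1 is the lowest cadmium array in 15 of the 16 genes shown that rose, and in 55.3% of all genes that rose. Thbs1 has deviations of 0.85, 2.71 and 2.68.

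Among the measured partners of thrombospondin-1 the only calls were decreases. Of 9 measured thrombospondins and receptors 0 rose and 2 fell (limma), and at an unadjusted p under 0.05 the counts were 1 and 2, with a median difference of 0.01. Only 2 of the 9 had a group mean above the bound. The receptor gene Cd36, named after its values were seen, was the unadjusted rise. It went from 1.99 ± 0.05 to 2.24 ± 0.11 without overlap, far below the bound, and did not pass (limma adjusted p = 0.0618). Itgav, the integrin alpha V chain through which thrombospondin can be bound, was at 6.20, 6.26 and 6.01 in control and 5.42, 5.62 and 5.55 in cadmium. The groups did not overlap, and Itgav fell by 0.63 ± 0.08 (SE, limma adjusted p = 0.00438) under every single omission, with both means below the bound. Scarb2, a lysosomal relative of CD36, fell from 5.21 ± 0.04 to 4.91 ± 0.04 (limma adjusted p = 0.0114), also below the bound. That call was lost when control replicate 1 or 2 or cadmium replicate 2 or 3 was left out, so that 1 gene of the list fell there. Thbs3, another thrombospondin, was at 4.89 ± 0.04 and 4.90 ± 0.06 (limma adjusted p = 0.939).

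In the TGF-beta list 0 of 12 genes rose and 1 fell (limma), with 1 and 2 at an unadjusted p under 0.05 and a median difference of 0.05. The ligand Tgfb1 was at 6.34, 6.28 and 5.84 in control and 5.85, 6.50 and 6.38 in cadmium. Its control replicate 3 and cadmium replicate 1 lay together below the other arrays, and it did not pass (limma adjusted p = 0.804). The receptor gene Tgfbr1, below the bound in both groups, fell from 5.36 ± 0.05 to 5.08 ± 0.10 (limma adjusted p = 0.0338), a call lost when any 1 array was left out. Tgfbr2 was at 4.61 ± 0.06 and 4.70 ± 0.06 (limma adjusted p = 0.343). Without cadmium replicate 1, 1 gene of the list (8.33%) rose and 0 fell, where 6.95% of all genes rose.

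Of 14 measured YAP and TEAD genes 0 rose and 1 fell (limma), with 3 and 1 at an unadjusted p under 0.05, where 17.6% and 11.3% of all genes were higher and lower, and a median difference of 0.10. Ccn2 and Ccn1, matricellular genes that YAP and SRF are both known to drive, were at 4.96 ± 0.03 and 5.04 ± 0.07 (limma adjusted p = 0.383) and at 4.38 ± 0.14 and 4.44 ± 0.07 (limma adjusted p = 0.648). Both pairs lay below the bound, where a change could be missed. Arhgef17, a guanine nucleotide exchange factor in this list, fell from 6.13 ± 0.04 to 5.91 ± 0.01 (limma adjusted p = 0.0344), below the bound in both groups. That call was also lost when any 1 array was left out. Without cadmium replicate 1, 3 genes of the list (21.4%) rose and 0 fell, where 6.95% of all genes rose.

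Col3a1 fell and the other measured markers of mesenchymal, endothelial and immune cells lay below the bound. In the list of fibroblast, stellate and pericyte markers 1 of 7 rose and 1 fell (limma). The summed linear signal of that list was 642 to 735 on control and 374 to 449 on cadmium arrays, with 1 gene above the bound. That gene, Col3a1, a fibrillar collagen, fell 2.01-fold, from 9.07 ± 0.13 to 8.06 ± 0.17 (limma adjusted p = 0.00183), while Postn, at 2.59 ± 0.11 and 2.87 ± 0.05, rose far below the bound (limma adjusted p = 0.0375, and 0.0601 with arrays centred). Of 6 endothelial markers 0 passed limma, with 3 higher at an unadjusted p under 0.05 (17.6% of all genes), and their sum was 121 to 129 on control and 118 to 135 on cadmium arrays. Of 3 immune markers 0 passed, also unadjusted, and their sum was 32 to 33 in both groups.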

How the data were processed

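The authors deposited 1 value per transcript cluster and array, used here as log2 signal without further scaling. The log2 scale is inferred from the range of the deposited values. The labels name no software, background correction, normalization or logarithm base. The table held 39746 transcript clusters and 6732 control probes, 5222 of them negative controls. Clusters were named from the platform annotation, with symbols updated through RefSeq (GRCm38.p6). Of them 19205 had 1 gene, 940 several and 19601 none there. The brightest cluster stood for each of 18972 genes, 161 of which had over 1. Probe coordinates are left out because no source names the probes' genome build, and the coordinates printed for the Cald1 promoter windows are those of GRCm38.p6.

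The sample titles gave each array's group and replicate number. All genes were fitted with limma 3.58.1 in R 4.3.3 (lmFit, eBayes, group as the only term, two-sided, Benjamini-Hochberg over 18972 genes, threshold 0.05). The number of arrays limits the precision. The script was tested on simulated data. The 3 genes and the lists were chosen with earlier results of these data known. Named genes are the 3, up to 4 called genes per list with the lowest adjusted p, preset genes, and the 3 most correlated genes each. Promoters came from RefSeq, and 1 of the 3 genes matched. Alternatives covered scaling, filters, probe choice, array weights, variance model, a replicate block, threshold and each array left out. Figures used matplotlib 3.10.9. Some genes of the lists are counted but not reported here by name.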

Additional observations from a re-analysis of the deposited data

How the results depend on the processing

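The differences of Thbs1, Tagln and Cald1 stayed above 0 under every alternative tried, but nothing is read from this. The groups of each gene do not overlap, so leaving out arrays could not reverse a sign. Each gene has 1 transcript cluster and the groups are balanced, so probe choice and the replicate block could not alter the differences. With 1 array left out the differences ranged from 1.77 to 2.69, 0.88 to 1.17 and 0.43 to 0.52. With control replicate 3 and cadmium replicate 1 both set aside, a choice made after seeing the data, they were 2.79, 1.24 and 0.57. The 22 list genes past the threshold became 9 of 26 among genes with a group mean above the background bound, 5 at a threshold of 0.01, 34 with both of those arrays set aside, and 5 to 27 with 1 array left out. The 2313 genes past the threshold overall became 878 of 2467, 868, 2894 and 1142 to 2361 in the same order. Of genes past the threshold 53.0% were higher as deposited, 35.6% with each array centred and 43.4% after quantile normalization, and of list genes 81.8%, 80.0% and 77.3%.

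The replicate number as a block gave 1388 genes past the threshold, and 15 list genes. Deviations from the group means of same-numbered arrays correlated at -0.11, 0.06 and -0.11, so the numbers of the titles were not taken to pair the samples. The source names number the arrays differently and were not used for a block. The arrays that share a number there, control replicate 1 with cadmium replicate 2 and control replicate 2 with cadmium replicate 3, correlated at 0.07 and 0.08. The highest correlation between a control and a cadmium array was 0.16, for control replicate 3 with cadmium replicate 1, which share no number.

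Tagln and Cald1 lay below the background bound on all 6 arrays, which limits what their signals show.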
